A study of Mus musculus with 6 samples.

Results

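The unfolded protein response genes Hyou1, Hspa5, Hsp90b1, Dnajb9, Sdf2l1, Xbp1, Atf4, Ddit3, Pdia4 and Herpud1 were followed across all 6 liver arrays of a study of diet-induced hyperlipidaemia in mice. The genes were listed by name, with earlier results of these data known. All 10 were found among the 16887 named genes of the platform annotation, each by 1 probe. Each array compared the liver RNA of 1 C57BL/6 mouse with 1 common pool made from the livers of 6 chow-fed C57BL/6 mice. All mice were 7 weeks old, and their sex is not given in the sources used here. All 6 measured mice ate a high-fat cholesterol (HFC) diet for 12 days. From day 5, 2 of them received fenofibrate by mouth at 100 mg/kg once daily, 2 received lovastatin at 30 mg/kg and 2 received vehicle, called HFC mice below. The chow-fed mice of the pool received vehicle too, and the other mice of the study were not analysed here. Fenofibrate is also what the lovastatin samples have in their treatment text, so the lovastatin dose was taken from the study's design and the lovastatin group was taken from their titles. Fenofibrate activates PPARα, a nuclear receptor of fatty acid oxidation, and lovastatin inhibits HMG-CoA reductase in cholesterol synthesis.

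The unfolded protein response senses misfolded protein in the endoplasmic reticulum (ER) through the membrane sensors IRE1, PERK and ATF6. IRE1 splices Xbp1 mRNA into the form that encodes an active transcription factor, PERK slows translation and favours synthesis of ATF4, and ATF6 is cut in the Golgi to release a transcription factor of its own. Together these factors raise ER chaperones, folding enzymes and the machinery that removes misfolded protein. The hepatocyte secretes albumin, clotting factors and lipoproteins, and its ER also makes phospholipid and cholesterol. The arrays measured mRNA of whole genes, so the splicing of Xbp1 and the translation of Atf4 were not measured here.

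ATF6 and spliced XBP1 act through short promoter elements, shown here for the genes of the set whose promoters hold their exact letters. The RefSeq promoter table (build GRCm38.p6, from 250 bases before to 50 after the annotated start) held a window for 9 of the 10 genes and none for Hyou1. Both strands were searched for the ER stress response element (ERSE, CCAAT and CCACG with 9 bases between them), ERSE-II (ATTGG and CCACG with 1 base between them), the XBP1 element (UPRE, TGACGTGG) and the ATF4 element (CARE, TGATGCAA). ERSE letters were present in the windows of 2 of the 9 genes and in 0.119% of all 32851 windows, and ERSE-II letters in 1 of the 9 and in 0.0365% of all. CARE letters were present in 1 of the 9, again Herpud1, and in 0.895% of all windows. UPRE letters were in 0 of the 9 windows and in 0.676% of all, and exact letters miss degenerate copies of any element. In the sites below the capitals mark the fixed letters of the element and the lower-case letters its spacer.
Hspa5 ERSE, chr2:34772025-34772043, plus strand: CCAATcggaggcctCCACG
Hsp90b1 ERSE, chr10:86705638-86705656, minus strand: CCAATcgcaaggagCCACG
Hsp90b1 ERSE, chr10:86705533-86705551, plus strand: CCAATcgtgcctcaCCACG
Herpud1 ERSE-II, chr8:94386377-94386387, plus strand: ATTGGgCCACG
The Hspa5 site starts at position -65 from the annotated start, the Hsp90b1 sites at -212 and -107, and the Herpud1 site at -52.

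Values are ratios of mouse over pool on a log scale, taken as log2, so 0 means the level of the chow pool. The base and the direction are not stated by the depositors. In the labels each mouse is channel 1 and the pool channel 2, and a repeated control spot lay at 4.83 and 4.95 on the fenofibrate arrays, at -9.71 and -4.32 on the lovastatin arrays and at -4.20 and -5.84 on the HFC arrays. The mouse was in Cy3 on the fenofibrate arrays and in Cy5 on the others, so dye cannot be told apart from the group in any comparison of 1 group with the pool, nor from fenofibrate in comparisons between groups. The SD over all probes ran from 0.419 to 0.570, except on lovastatin replicate 1, where it was 1.09. Correlations between arrays across features, which are not independent, ran from 0.0615 to 0.508, and were all above 0. All arrays share the pool as reference, so likeness of the mice cannot be told apart from the shared pool. Between the 2 arrays of a group the correlation was 0.402 for fenofibrate, 0.189 for lovastatin and 0.246 for HFC. The highest, 0.508, was between HFC replicate 1 and lovastatin replicate 2. On HFC replicate 2 the values of 4 of 8 blocks of array columns were displaced along the rows. Of the 10 genes, Hsp90b1, Sdf2l1 and Ddit3 lie in such blocks. Their HFC value in the fits comes from replicate 1 alone, and the value found after rotating the block back is given beside it.

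None of the 10 genes passed the test in any comparison, so the values below describe these mice. The transcription factors come first. Xbp1, the target of IRE1 and an activator of ER chaperones and of lipid synthesis in liver, had log2 ratios of 0.45 and 1.10 in the fenofibrate mice, 0.21 and 0.65 in the lovastatin mice and 0.18 and 0.34 in the HFC mice. It was above the pool in every mouse, with its highest value in fenofibrate replicate 2. Atf4, the factor made when PERK is active, was at -0.23 and 0.04 in the fenofibrate mice, 1.46 and 0.31 in the lovastatin mice and 0.00 and 0.03 in the HFC mice. Both lovastatin values lay above the other 4 arrays, and the higher of them came from the array with the widest spread. Over all features, 12.9% had lovastatin above HFC without overlap of the arrays, and 20.2% had fenofibrate below lovastatin. Ddit3, which encodes the pro-apoptotic factor CHOP, was at 0.68 and -0.10 in the fenofibrate mice, 0.61 and 0.78 in the lovastatin mice and 0.30 in HFC replicate 1 (0.42 put back in replicate 2). The 2 fenofibrate mice lay on opposite sides of the pool.

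Among the chaperones, Hspa5 encodes BiP, the ER member of the HSP70 family that also holds the sensors inactive. Its log2 ratio was 0.25 and -0.26 in the fenofibrate mice, 0.09 and 1.27 in the lovastatin mice and 0.01 and 0.42 in the HFC mice. The value of lovastatin replicate 2 stood above all others, while its group partner was near the pool. Hsp90b1, which encodes the ER HSP90 paralogue GRP94, was at -0.35 and -1.01 in the fenofibrate mice, -0.04 and 0.45 in the lovastatin mice and 0.00 in HFC replicate 1 (-0.47 put back in replicate 2). Both fenofibrate values lay below both lovastatin values, as in 20.2% of features. Both genes have ERSE letters in their windows, shown above.

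Hyou1, an ER chaperone of the HSP110 family that exchanges nucleotide on BiP, had the widest range of the 10 genes. Its log2 ratio was 0.47 and -0.97 in the fenofibrate mice, 3.56 and 1.29 in the lovastatin mice and 0.84 and 0.02 in the HFC mice. The 2 lovastatin values were the highest of the 6, with 0.794% of features above it on replicate 1 and 0.534% on replicate 2. Lovastatin lay above HFC without overlap in 12.9% of features, and fenofibrate below lovastatin in 20.2%. Dnajb9, a BiP co-chaperone that feeds misfolded protein to degradation, was at 0.03 and 0.34 in the fenofibrate mice, -0.29 and 1.17 in the lovastatin mice and 0.60 and 0.41 in the HFC mice. The lovastatin values of Dnajb9 were its lowest and its highest. Sdf2l1, which works with DNAJ partners of BiP, was at -0.21 and -1.34 in the fenofibrate mice, -0.46 and 0.37 in the lovastatin mice and -0.66 in HFC replicate 1 (-0.46 put back in replicate 2). Only lovastatin replicate 2 was above the pool for Sdf2l1.

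Pdia4, a protein disulfide isomerase, was at -0.26 and -0.82 in the fenofibrate mice, -0.25 and -0.48 in the lovastatin mice and -0.90 and -0.58 in the HFC mice. It was below the pool in every mouse. Herpud1, a membrane protein of the ER-associated degradation complex, was at -0.03 and 0.17 in the fenofibrate mice, -0.01 and 0.24 in the lovastatin mice and 0.64 and 0.69 in the HFC mice. The HFC mice were close to each other and above all 4 drug-treated mice. Fenofibrate lay below HFC without overlap in 20.3% of features, and lovastatin below HFC in 18.1%. Over features with 6 values, 6.1% were above 0 on all arrays and 5.87% below 0 on all, which is the background for the constant signs of Xbp1 and Pdia4.

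**Figure D1:**
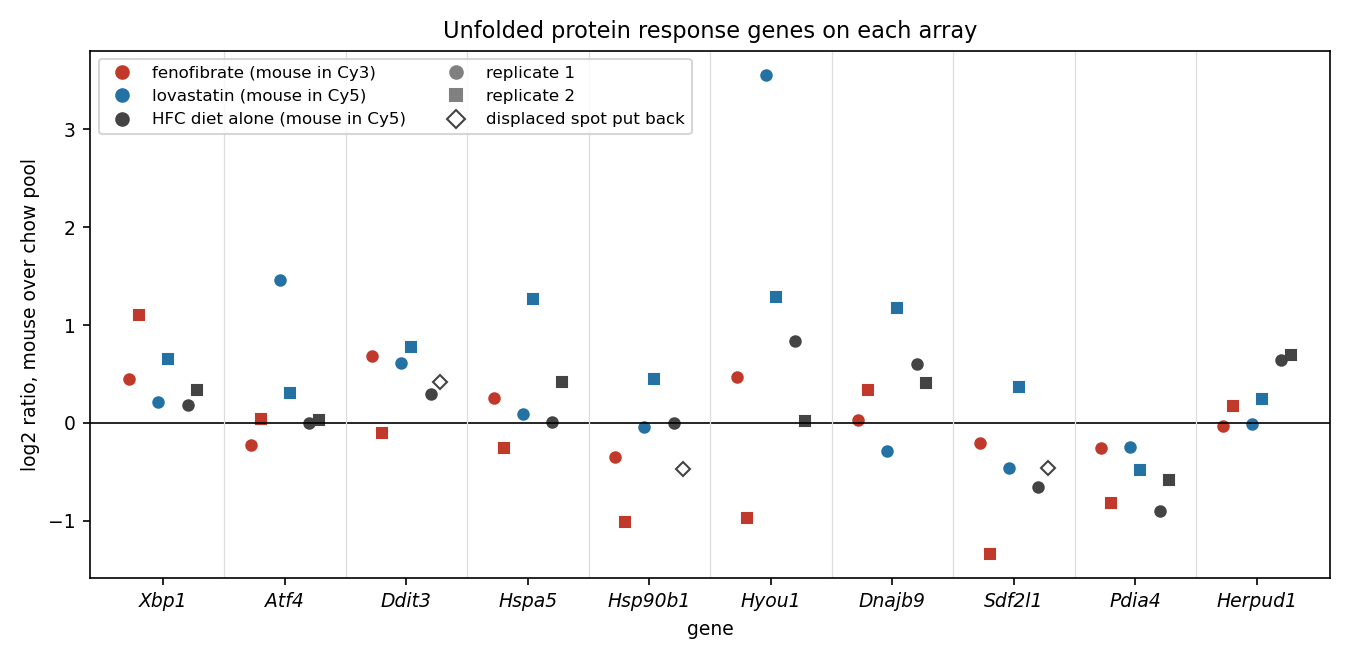
Log2 ratio of mouse over chow pool (vertical axis) for the 10 genes (horizontal axis), with 1 point per array, coloured by group and shaped by replicate. Open diamonds are displaced spots of HFC replicate 2 put back. Xbp1 points all lie above 0 and Pdia4 points all below, and the 2 Hyou1 points of the lovastatin mice, at 3.56 and 1.29, are the highest for that gene.

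Across the set, 5 and 4 of 10 genes were above 0 in the fenofibrate mice, 5 and 9 in the lovastatin mice, and 6 of 10 and 6 of 7 in the HFC mice, with 48.4% to 52.3% of all features above 0 per array. The median of the set was 0.00 and -0.18 in the fenofibrate mice, 0.04 and 0.55 in the lovastatin mice and 0.095 and 0.34 in the HFC mice, against medians from -0.02 to 0.03 over all features. With the displaced spots put back, 7 of 10 were above 0 on HFC replicate 2, with a median of 0.185. The highest median belonged to lovastatin replicate 2, and that of its group partner was near the pool. The named genes whose values lay closest to the mean of the set over the 5 arrays without displaced spots were Rbm14 (root mean square difference 0.0957), Psph (0.105), Wrap73 (0.117), Cxxc1 (0.118) and 5530601H04Rik (0.118). They were found among 16362 genes and are given as a description.

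The broadest comparison set all HFC-fed mice, with and without drug, against the chow pool. Both dye orientations were given equal weight so that a gene-specific dye effect cancels. The fenofibrate mice thus weigh as much as the lovastatin and HFC mice together, and diet cannot be told apart from drug in this comparison. Xbp1 averaged 0.56 (SE 0.145, limma adjusted p = 0.256) and Pdia4 -0.55 (SE 0.134, limma adjusted p = 0.234). Their 95% intervals ran from 0.195 to 0.925 and from -0.884 to -0.208. Hyou1 was at 0.59 (SE 0.384), Ddit3 at 0.39 (SE 0.173) and Dnajb9 at 0.33 (SE 0.222), each with an interval that holds 0. Herpud1 (0.23), Hspa5 (0.22) and Atf4 (0.18) were nearer to the pool. Hsp90b1 (-0.29) and Sdf2l1 (-0.56) lay on the side of Pdia4.

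By limma, 0 of the 10 genes passed over all features, where 110 of 19447 features (0.566%) did. At an unadjusted p under 0.05 the set gave 2 genes, Xbp1 and Pdia4, in opposite directions, beside 10.8% of all features. The set's median was 0.23 and that of all features 0.0075, with 7 of 10 genes above 0 and 51.0% of features above 0. Replicates are separate mice per the labels, but the chow pool is a single sample, so its own spread is not in these errors. In whole liver, fewer cells of a type and less RNA per cell cannot be told apart.

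**Figure D2:**
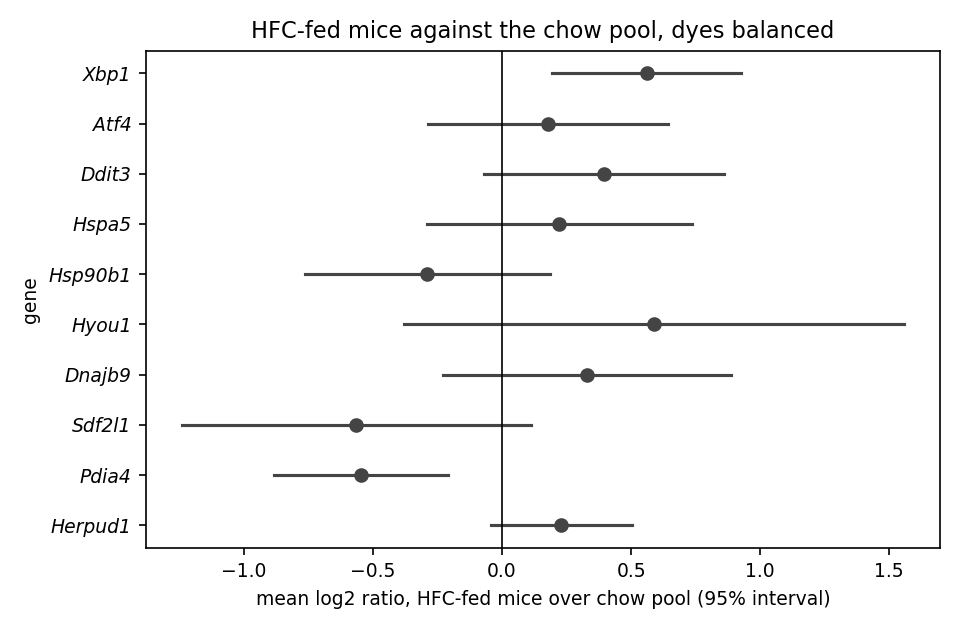
Mean log2 ratio of HFC-fed mice, with and without drug, over the chow pool, with its 95% interval (horizontal axis), for each gene (vertical axis). Values are from the limma fit on all 6 arrays with the dye orientations weighted equally. The intervals of Xbp1 (0.195 to 0.925) and Pdia4 (-0.884 to -0.208) do not hold 0, and neither gene passed after adjustment over all features.

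In fenofibrate mice against the pool, Xbp1 had the smallest p of the set (mean 0.78 ± 0.460, SD, n = 2, limma adjusted p = 0.531). Hsp90b1 averaged -0.68 ± 0.467 and Sdf2l1 -0.78 ± 0.799, with Pdia4 at -0.54 ± 0.396. Hspa5 was at -0.005 ± 0.361. Of the 10 genes, 0 passed by limma, as did 0 of 19470 features (0%), and at an unadjusted p under 0.05 these were 1 gene and 7.62% of features.

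In lovastatin mice against the pool, Hyou1 averaged 2.42 ± 1.61 (SD, n = 2, limma adjusted p = 0.431) and Atf4 0.88 ± 0.813 (limma adjusted p = 0.438). Ddit3, at 0.70 ± 0.120, and Hspa5, at 0.68 ± 0.834, were the next highest means. By limma, 0 of 10 genes and 0 of 19501 features (0%) passed, and at an unadjusted p under 0.05 these were 2 genes, Hyou1 and Atf4, and 10.6% of features. Without lovastatin replicate 2, so with the widest array alone, Hyou1 was at 3.56 and Atf4 at 1.46. Without lovastatin replicate 1, Hyou1 was at 1.29 and Atf4 at 0.31. With 1 array left, the spread of the lovastatin mice is not measured.

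In HFC mice against the pool, with no drug given, Herpud1 averaged 0.66 ± 0.0354 (SD, n = 2, limma adjusted p = 0.844) and Pdia4 -0.74 ± 0.226 (limma adjusted p = 0.958). Dnajb9 was at 0.50 ± 0.134, Hyou1 at 0.43 ± 0.580 and Atf4 at 0.015 ± 0.0212. By limma, 0 of 10 genes and 0 of 19499 features (0%) passed, and at an unadjusted p under 0.05 these were 2 genes, Herpud1 and Pdia4, and 4.72% of features. In each of these 3 comparisons of 1 group with the pool the mouse carried the same dye on both arrays, so a gene-specific dye effect cannot be told apart from diet or drug. They also share the pool, so their values are set side by side and not correlated.

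The comparisons between groups ask what each drug did on the diet. In fenofibrate mice, against lovastatin mice, Hyou1 differed by -2.68 (SE 0.887, limma adjusted p = 0.701), Atf4 by -0.98 (SE 0.427) and Hsp90b1 by -0.89 (SE 0.376). These 3 genes were the ones whose arrays did not overlap, all with fenofibrate below, where 20.2% of features were so and 20.1% the other way. By limma, 0 of 10 genes and 0 of 19459 features (0%) passed, with Hyou1 and 5.52% of features at an unadjusted p under 0.05. Without lovastatin replicate 2, so with the widest array alone in its group, Hyou1 differed by -3.81 and Atf4 by -1.56. The other arrangement, without lovastatin replicate 1, gave -1.54 for Hyou1 and -0.41 for Atf4. With 1 array left, the spread of the lovastatin mice is not measured. Dye orientation differs between these groups and cannot be told apart from the drug.

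In fenofibrate mice, against HFC mice, Herpud1 differed by -0.60 (SE 0.249) and Xbp1 by 0.52 (SE 0.335), both at a limma adjusted p = 1. Of the 7 genes with both HFC values, Xbp1 was above without overlap of the arrays (19.3% of features) and Dnajb9 and Herpud1 were below (20.3% of features). By limma, 0 of 10 genes and 0 of 19456 features (0%) passed, and 0 genes and 2.87% of features had an unadjusted p under 0.05. The dyes again differ between these groups.

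In lovastatin mice, against HFC mice, where the mouse was in Cy5 on every array, Hyou1 differed by 1.995 (SE 0.887), Atf4 by 0.87 (SE 0.427) and Herpud1 by -0.55 (SE 0.249), each at a limma adjusted p = 0.972. The interval for Hyou1 ran from -0.239 to 4.23. Of 7 genes, Hyou1, Atf4 and Pdia4 were above without overlap of the arrays (12.9% of features), and Herpud1 was below (18.1% of features). With limma, 0 of 10 genes and 0 of 19485 features (0%) passed, and 0 genes and 2% of features had an unadjusted p under 0.05. The median 95% interval over all features, with no adjustment for the number of features, reached 1.03 to either side, and even the difference of 1.995 for Hyou1 did not pass after adjustment.

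**Figure D3:**
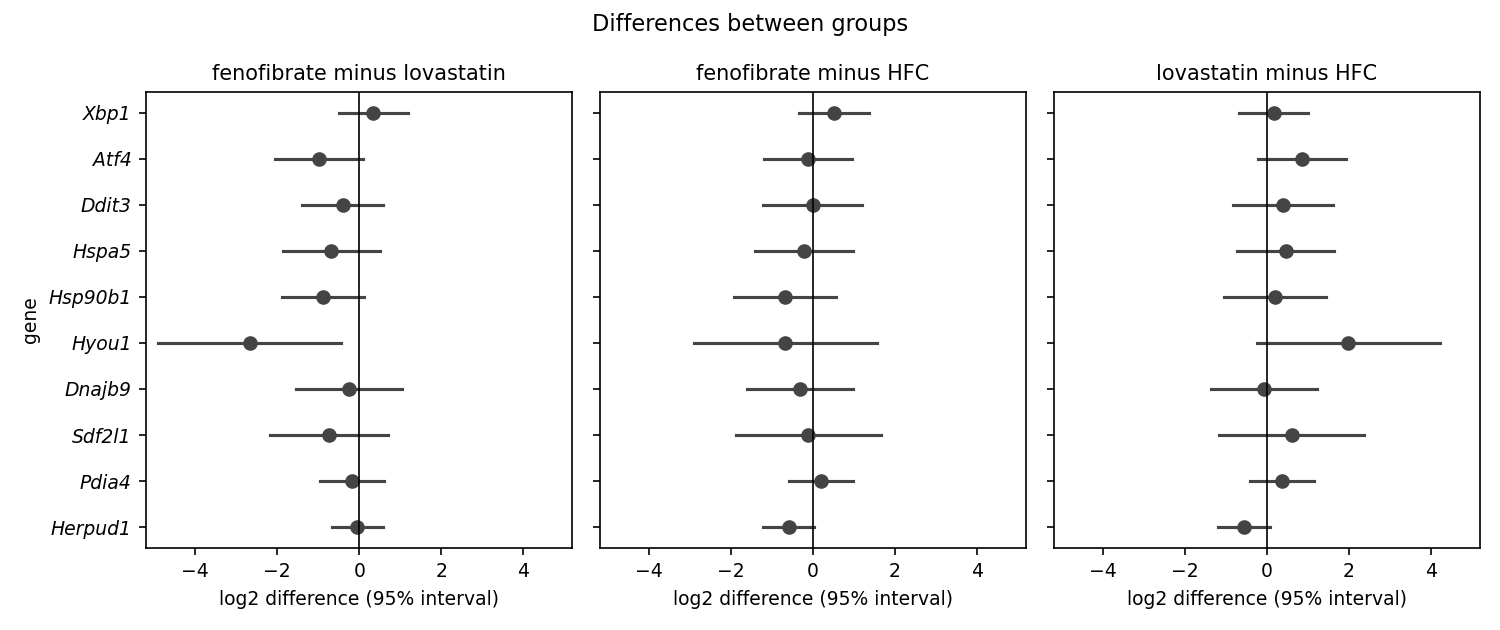
Log2 difference between groups with its 95% interval (horizontal axes) for each gene (vertical axis), in panels for fenofibrate minus lovastatin, fenofibrate minus HFC and lovastatin minus HFC. Hyou1 has the widest intervals, and the interval that leaves out 0 is that of Hyou1 for fenofibrate minus lovastatin (-4.91 to -0.441).

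The wider pathway was read from lists of genes grouped by role, here in the dye-balanced comparison with the pool. In that comparison 51.0% of all features were above 0, with a median of 0.0075. In every list below, 0 genes passed over all features in any of the 7 comparisons. Of 6 measured sensors and their proteases, 5 were above 0, with a median of 0.21. Eif2ak3, which encodes PERK, was at 0.65 and 0.55 in the fenofibrate mice, 0.92 and 0.81 in the lovastatin mice and 0.62 in HFC replicate 1 (mean 0.67, SE 0.121, limma adjusted p = 0.171). All its measured arrays lay above the shared pool and close together, and it was named for its small p within the list. Over features with 6 values, 6.1% were above 0 on all arrays and 5.87% below 0 on all. Creb3l3, a liver factor released from the ER membrane like ATF6, was at 0.20 and 0.13 in the fenofibrate mice, 0.51 and 0.27 in the lovastatin mice and 0.74 and 0.42 in the HFC mice. Ern1, which encodes IRE1, and Atf6 averaged 0.059 and 0.14.

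Of 22 other ER chaperones and folding enzymes, 16 were above 0, with a median of 0.064, and 4 were higher and 1 lower at an unadjusted p under 0.05 (5.19% and 5.63% of all features). Txndc5, a thioredoxin-domain disulfide isomerase, was at 0.69 and 0.77 in the fenofibrate mice, 0.42 and 0.94 in the lovastatin mice and 0.31 and 0.51 in the HFC mice (mean 0.64, limma adjusted p = 0.147). Serp1, a protein bound to the translocon under stress, averaged 0.46, and Hspa13, an HSP70 relative of the ER, 0.41. Pdia3, a disulfide isomerase for glycoproteins, was at -0.10 and -0.21 in the fenofibrate mice, -0.55 and -0.26 in the lovastatin mice and -0.79 and -0.43 in the HFC mice. Like Pdia4, it was below the pool on all 6 arrays.

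Of 16 measured genes of ER-associated degradation, 10 were above 0, with a median of 0.081. Ube2j1, a ubiquitin-conjugating enzyme of the ER membrane, averaged 0.46 (limma adjusted p = 0.256), while Os9, a lectin that recognises misfolded glycoproteins, averaged -0.37 (limma adjusted p = 0.336). Derl1 (0.25) and Ufd1 (0.34), of the channel and the extraction step, were above 0 on every array with a value. Of 24 measured genes of ER entry and early traffic, 16 were above 0, with a median of 0.094. Sec24d, a COPII coat subunit, averaged 0.69 (SE 0.147, limma adjusted p = 0.183).

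LMAN1 and MCFD2 form the cargo receptor that carries clotting factors V and VIII out of the ER. Mcfd2 was at -1.20 and -1.11 in the fenofibrate mice, -0.30 and 0.07 in the lovastatin mice and -0.33 in HFC replicate 1 (mean -0.69, limma adjusted p = 0.190). Lman1 was at -0.81 and -1.01 in the fenofibrate mice, -0.45 and -0.66 in the lovastatin mice and -0.06 in HFC replicate 1 (mean -0.61, limma adjusted p = 0.217). Both genes had their 2 lowest values in the fenofibrate mice, and fenofibrate lay below lovastatin without overlap in 20.2% of features. Kdelr1, a receptor that returns escaped chaperones to the ER, averaged -0.35 (limma adjusted p = 0.445).

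Of 23 measured targets of ATF4 and CHOP, 11 were above 0, with a median of -0.091, and 0 were higher and 2 lower at an unadjusted p under 0.05. Cth, the cystathionine gamma-lyase of cysteine synthesis, was below the pool on all 6 arrays (mean -0.62, SE 0.116, limma adjusted p = 0.136). Cebpb, a factor of the acute phase and of gluconeogenesis, was at -1.01 and -0.54 in the fenofibrate mice, -0.58 and -0.41 in the lovastatin mice and 0.49 and 0.89 in the HFC mice. Its groups lay on opposite sides of the pool, with the drug-treated mice below and the HFC mice above. Over all features, 20.3% had fenofibrate below HFC without overlap of the arrays, and 18.1% had lovastatin below HFC. Cebpb was named for its small p within the list. For Cebpb the difference was -1.46 (SE 0.301) in fenofibrate mice against HFC mice, at limma adjusted p = 1, and -1.18 (SE 0.301) in lovastatin mice against HFC mice, at limma adjusted p = 0.972. Asns, the asparagine synthetase often used as an ATF4 readout, averaged 0.053, and Slc3a2 and Ddit4 averaged -0.29 and -0.27. Other targets averaged above 0, among them Psat1 (0.79), Mthfd2 (0.36) and Nupr1 (0.32), and 12 of the 23 averaged below 0. These 3 genes had their highest values on lovastatin replicate 1, the array with the widest spread, at 2.80, 2.46 and 1.78. On lovastatin replicate 2 they were at 0.19, 0.35 and 0.48. By group against the pool, the list's median was 0.025 in the fenofibrate mice, -0.015 in the lovastatin mice and 0.035 in the HFC mice. Ddit3 and Atf4 averaged 0.39 and 0.18 in the dye-balanced comparison.

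**Figure D4:**
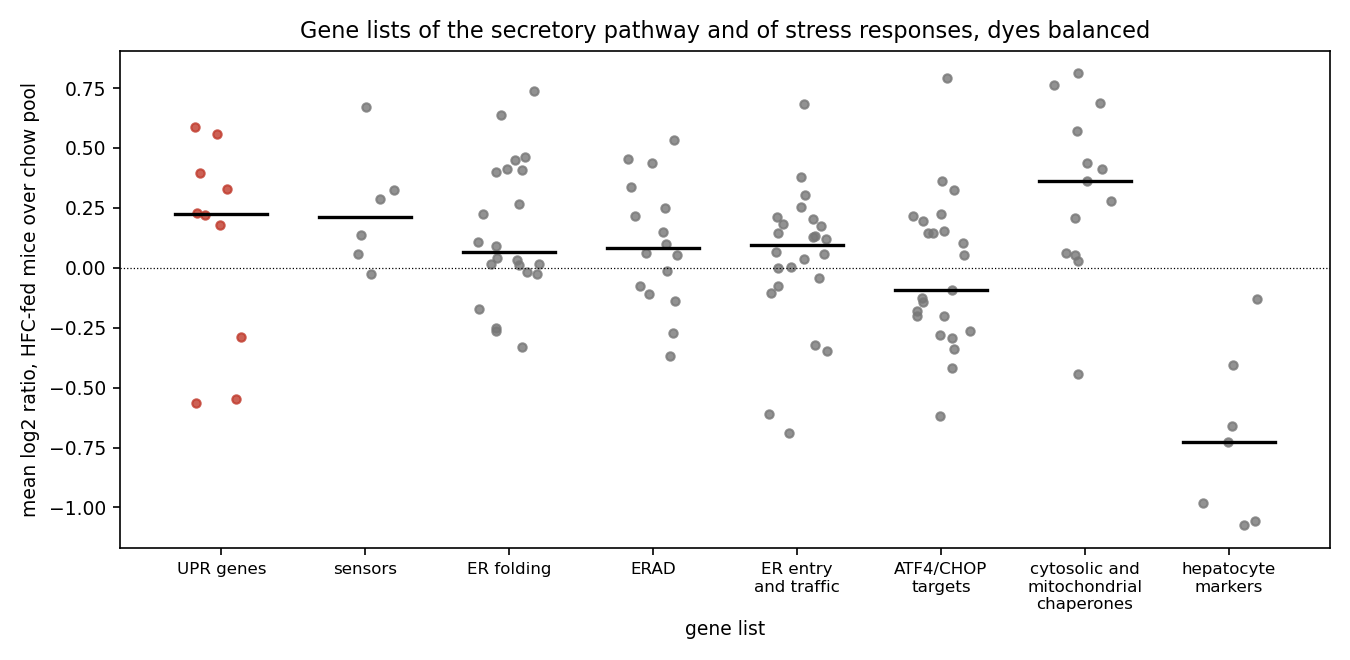
Mean dye-balanced log2 ratio of HFC-fed mice, with and without drug, over the chow pool (vertical axis) for genes of 8 lists (horizontal axis). Each measured gene is 1 point, and a bar marks the list's median. The unfolded protein response genes, in red, have a median of 0.23, the ATF4 and CHOP targets one of -0.091 and the hepatocyte markers one of -0.725.

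Markers of cell types are given beside these values, and their part in them was not tested. By limma, 0 of the markers passed over all features in any comparison. All 7 measured hepatocyte markers were below 0 in the dye-balanced comparison. Of them, 6 had an unadjusted limma p under 0.05, beside 5.63% of all features lower at that p. By group against the pool, 0 of the 7 were above 0 in the fenofibrate mice, 1 in the lovastatin mice and 2 in the HFC mice. Trf was at -0.62 and -0.90 in the fenofibrate mice, 0.73 and 0.46 in the lovastatin mice and 0.62 and 0.19 in the HFC mice. Pck1 was at 0.41 in HFC replicate 1 and below the pool in the drug-treated mice. The median of the 7 markers was -0.63 and -1.05 in the fenofibrate mice, -0.61 and -0.65 in the lovastatin mice and -0.53 and -0.355 in the HFC mice. Ttr (-0.98), Tat (-1.06), Alb (-0.725) and Apoa1 (-0.66) had the smallest p, none of which passed (limma adjusted p from 0.0824 to 0.265). Ratios against a pool do not show how high a marker is, so the presence of a cell type could not be read from them. The median over Kupffer cell markers was -0.275 and -0.545 in the fenofibrate mice, 0.145 and 0.05 in the lovastatin mice and -0.135 and 0.00 in the HFC mice. B cell and plasma cell markers had medians from -0.25 to 0.205 over the 6 arrays, exocrine pancreas markers from -0.08 to 0.235, endothelial markers from -0.39 to 0.195 and stellate cell markers from -0.51 to 0.145. Among pancreas markers Pnliprp1, a lipase relative, averaged 2.12 and Cela2a, an elastase, -0.96, and neither passed (limma adjusted p = 0.194 and 0.120).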

How the data were processed

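The authors deposited 1 log ratio per spot and array, with base and direction not stated, and these deposited values were taken as log2 of mouse over chow pool. How the scans were corrected and normalized is not given in the sources used here. Intensities were not used, so probes were kept whatever their brightness, and precision is limited by the number of arrays. Per the labels' protocols, 0.5 µg of total RNA was labelled with a linear amplification kit. Of 22575 spots, those without values (726) and a repeated unnamed control (561) were not used. Probes of a gene were averaged, giving 19517 features (16887 named genes). The 10703 probes in displaced blocks of HFC replicate 2 (50.3%) were set to missing there. Put back by the rotation within the block that best matched other arrays, the blocks' correlation with those arrays was 0.297 to 0.311, and -0.0337 to 0.0274 as deposited.

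Group means were fitted with limma 3.58.1 in R 4.3.3 on all 6 arrays (3 residual degrees of freedom, prior 2.37), with Benjamini-Hochberg adjustment over all features and a threshold of 0.05. The dye-balanced contrast weighs HFC and lovastatin equally and fenofibrate as much as both. The fit was run on simulated data, with normal noise of the same SD on every array of a feature. Known changes were set only in features with 6 values. The simulation thus did not cover the unequal spread of the arrays or changes in genes with a missing HFC value. Tables were made in pandas 2.3.3 and numpy 2.4.6 under Python 3.11.15, and figures in matplotlib 3.10.9. The genes and lists were chosen with earlier results of these data known. The rule for named genes took all 10 genes, up to 4 genes per list with the smallest p in the dye-balanced comparison, any list gene past the threshold and the 5 genes of closest pattern. Ern1, Asns, Psat1, Mthfd2, Nupr1, Trf and Pck1 fall outside it, as do Creld2, Manf and Syvn1 in the closing section. These genes were chosen after their values were seen. Of the list genes, 16 were not measured here.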

Additional observations from a re-analysis of the deposited data

How the results depend on the processing

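The dye-balanced direction of all 10 genes was the same in every alternative that gave a value. Over all features, that comparison called 110, against 67 with displaced values as deposited, 191 with the blocks put back and 191 with quantile normalization. It called 230 with array quality weights, 0 with the replicate block and 0 to 824 with 1 array left out. With 2 arrays per group, the array weights are equal within each group by construction (0.511 for both lovastatin arrays). They therefore could not single out lovastatin replicate 1. For fenofibrate against the pool the count of 0 became 9 as deposited, 32 put back, 12 with median centring, 14 with quantile normalization, 111 with array weights and 0 to 23 with 1 array left out. For lovastatin against the pool it became 2 put back, 4 with quantile normalization and 0 to 3805 with 1 array left out. For HFC against the pool it became 5, 9 and 0 to 6 in those settings. Between groups, leaving out 1 array gave 0 to 2033 for fenofibrate against lovastatin and 0 to 1184 for lovastatin against HFC. The upper ends of these ranges all came without lovastatin replicate 2. The 6 and the 23 were also reached when lovastatin replicate 1 was left out instead. Of the 10 genes, 0 to 2 were called with 1 array left out, 2 only without lovastatin replicate 2 (Hyou1 and Atf4), for lovastatin against the pool and fenofibrate against lovastatin. Of 998 values of single genes under alternatives, 964 kept direction and side of the threshold, 30 changed direction and 4 passed. Outside left-out arrays, quantile normalization turned Hspa5 in fenofibrate against the pool (0.022), Sdf2l1 in lovastatin against the pool (0.16), Sdf2l1 in fenofibrate against HFC (0.17) and Dnajb9 in lovastatin against HFC (0.18). Ddit3 in fenofibrate against HFC turned to 0.065 as deposited and to 0.14 with the replicate block. With 1 array left out, values against the pool spanned 0 in fenofibrate mice for Hyou1 (-0.97 to 0.47), Hspa5 (-0.26 to 0.25), Atf4 (-0.23 to 0.04), Ddit3 (-0.10 to 0.68) and Herpud1 (-0.03 to 0.17), and in lovastatin mice for Hsp90b1 (-0.04 to 0.45), Dnajb9 (-0.29 to 1.17), Sdf2l1 (-0.46 to 0.37) and Herpud1 (-0.01 to 0.24). Between fenofibrate and HFC they did so for Hyou1 (-1.40 to 0.04), Hspa5 (-0.475 to 0.035), Sdf2l1 (-0.68 to 0.45), Atf4 (-0.245 to 0.025), Ddit3 (-0.40 to 0.38) and Pdia4 (-0.08 to 0.48). Between lovastatin and HFC they did so for Hspa5 (-0.125 to 1.055), Hsp90b1 (-0.04 to 0.45), Dnajb9 (-0.795 to 0.665) and Xbp1 (-0.05 to 0.39), and between fenofibrate and lovastatin for Dnajb9 (-0.985 to 0.475), Pdia4 (-0.455 to 0.105) and Herpud1 (-0.17 to 0.08). The cause was not tested. The replicate numbers did not pair the arrays: deviations correlated at -0.00010 between fenofibrate and HFC, 0.031 between fenofibrate and lovastatin and -0.024 between lovastatin and HFC. A lone array of a group was assumed to vary like the other groups. Without HFC replicate 1 there was no HFC value for Hsp90b1, Sdf2l1 and Ddit3. Other background corrections, a filter on dim probes and slide as a block were not run, since no intensities or slides were used.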

Other observations

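On lovastatin replicate 2, 17 of 22 other ER chaperones and folding enzymes were above 0, with a median of 0.41, as were 12 of 16 genes of ER-associated degradation, with a median of 0.285, and 8 of 13 cytosolic and mitochondrial chaperones, with a median of 1.02. On lovastatin replicate 1 these were 15 of 22 (median 0.185), 12 of 16 (median 0.20) and 9 of 13 (median 0.34). Over all features the median was -0.01 on replicate 2 and -0.02 on replicate 1, with 48.4% and 48.7% of features above 0. The values on replicate 2 ran both ways within the lists. Pdia3 was at -0.26 and Hspb8 at -0.27 there, while Creld2, an ER stress-induced secreted protein, was at 2.29, Manf, an ER-resident growth factor, at 1.46 and Syvn1, the ubiquitin ligase of ER-associated degradation, at 1.22, beside Hyou1 at 1.29, Hspa5 at 1.27 and Dnajb9 at 1.17. On lovastatin replicate 1, Creld2 was at 0.30, Manf at 0.06 and Syvn1 at 0.09, while Hyou1 was higher, at 3.56. Creld2, Manf and Syvn1 were picked after their values were seen, and none of them passed in any comparison.

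Of 13 measured cytosolic and mitochondrial chaperones, 12 were above 0 in the dye-balanced comparison, with a median of 0.36, beside 51.0% of all features above 0. Like the other lists, this one was chosen with earlier results of these data known. At an unadjusted p under 0.05, 7 were higher and 1 was lower, beside 5.19% and 5.63% of all features, and 0 passed over all features. Hspb1, the small heat shock protein HSP27, was at 0.61 and 0.72 in the fenofibrate mice, 0.88 and 1.02 in the lovastatin mice and 0.52 and 0.41 in the HFC mice (mean 0.69, SE 0.103, limma adjusted p = 0.0865). It was above the pool on all 6 arrays. Hsph1, the cytosolic HSP110, was at 0.42 and 0.38 in the fenofibrate mice, 0.78 and 2.31 in the lovastatin mice and 0.44 and 0.98 in the HFC mice (limma adjusted p = 0.334). Bag3, an HSP70 co-chaperone, averaged 0.57 (limma adjusted p = 0.279) and Hspb8 -0.45 (limma adjusted p = 0.294). The list's median was 0.29 and 0.38 in the fenofibrate mice, 0.34 and 1.02 in the lovastatin mice and 0.02 and 0.34 in the HFC mice.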
